A study of Mus musculus with 18 samples.

Results

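The miR-290 and miR-302 clusters are the microRNA genes most closely tied to the pluripotent state of mouse embryonic stem cells, and the open chromatin over and around them is described here. They were represented by 9 microRNA genes, Mir291a, Mir293, Mir294 and Mir295 on chromosome 7 and Mir302a, Mir302b, Mir302c, Mir302d and Mir367 on chromosome 3. Each cluster was taken from its first to its last named gene in the GRCm38 annotation, and every peak of accessible chromatin over it or within 50 kb of it was kept, which gave 40 of the 166066 peaks of the series, 28 at miR-290 and 12 at miR-302. The rule kept peaks by their position relative to these genes, so their number, width and placement inside the windows were free to vary. The genes themselves were chosen with earlier results of these data known.

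The peaks came from ATAC-seq, an assay in which a transposase cuts and tags the accessible DNA of chromatin. All 18 libraries were from 1 line of embryonic stem cells, dTKO, whose genotype is given as Suv39h1 fl/fl, Suv39h2-/- and Setdb1 fl/fl, so that every group lacks Suv39h2 and no line with all 3 histone H3 lysine 9 methyltransferases intact is among them. Every library, those at 0 h included, carries the treatment label auxin with dTAG13 (100 µg/ml and 0.5 µM), agents that trigger the breakdown of suitably tagged proteins, and 3 biological repeats were collected at each of 0, 3, 6, 12, 24 and 48 h. The cells were grown on gelatin in serum with LIF. The deposited list pools all libraries and holds positions only. A peak here means open chromatin called in the pooled series, at no stated time. The values carry no count, height, depth or replicate error, the change from 0 h to later times was not analysed here, and no test between groups was possible.

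MicroRNAs are cut from hairpins in longer primary transcripts and silence messenger RNAs that pair with their seed, the stretch near the 5′ end of the mature strand. The miR-290 cluster is among the most abundant microRNA sources of mouse embryonic stem cells and is known for a large enhancer domain bound by the core pluripotency factors, whereas the miR-302 cluster is known to be more active in primed, epiblast-like cells. Several of their products share a seed and are known for promoting the rapid stem cell cycle, with the cell cycle inhibitor gene Cdkn1a and the Rb family gene Rbl2 among their targets. The clusters are set side by side because they both encode that seed, from separate genomic surroundings.

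The mature strands below, from RefSeq with GRCm38.p6 positions, show that shared seed in capitals (bases 2 to 8, counted from the 5′ end). All lie on the plus strand. The group with the seed AAGUGCU came from both clusters.
miR-291a-3p: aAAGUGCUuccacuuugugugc
miR-294-3p: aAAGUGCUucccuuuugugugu
miR-295-3p: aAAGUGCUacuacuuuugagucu
miR-302b-3p: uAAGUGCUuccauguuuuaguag
miR-302d-3p: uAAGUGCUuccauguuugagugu
miR-302c-3p, as listed, starts 1 base later, so its seed window reads AGUGCUU.
miR-302c-3p: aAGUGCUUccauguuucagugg
The remaining listed products of the named genes carry other seeds.
miR-293-3p: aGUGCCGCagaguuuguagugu
miR-367-3p: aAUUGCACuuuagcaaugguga

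Among the 1738 mature mouse sequences of the table, the seed AAGUGCU was found in 5, all 5 of them products of the named genes, 3 from miR-290 and 2 from miR-302. MiR-302a-3p, the 3′ strand of a named gene, is not among the entries used here. Its seed was therefore not read, and the count for miR-302 leaves it out. The 3′ strands of miR-291a and miR-294 were identical at 19 of 22 positions and those of miR-302b and miR-302d at 20 of 23. Another pair from miR-290, miR-291a-3p and miR-295-3p, matched at only 15 of 22. Between clusters, miR-294-3p and miR-302b-3p matched at 14 of 22 positions from the 5′ end, close to that lower value within miR-290. The seed of miR-367-3p, AUUGCAC, occurred in 6 further entries outside the clusters, among them miR-25-3p and miR-92a-3p. At the edge of the miR-290 group, the 3′ strands of Mir290a and Mir291b, which lie in the cluster but are not among the 9 named genes, differ from the shared seed in its last base.
miR-290a-3p: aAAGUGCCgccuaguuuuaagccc
miR-291b-3p: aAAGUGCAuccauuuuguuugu

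Each of the 9 genes had a peak within 1 kb, whereas 37.1% of the 1228 annotated mouse microRNA genes did. The 9 genes lie in 2 clusters and share 3 nearest peaks, so they are not 9 separate observations. Their distances to the nearest peak ran from 0 to 497 bp with a median of 15 bp, and the median over all microRNA genes was 1.88 kb. Within 250 bp lay a peak for 7 of the 9 (25.7% of all microRNA genes), and within 2 kb for all 9 (51.4%). A peak wider than the median of the list lay within 1 kb of 8, all but Mir291a, against 28.3%. Peaks overlapped 4 of the 9, Mir294, Mir295, Mir302b and Mir302c, against 20.8% of all microRNA genes, and in each of the 4 the whole hairpin gene was inside the peak.

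In the miR-290 cluster (chromosome 7, 3218919 to 3220841, GRCm38), the named genes under a peak were the most distal, Mir294 and Mir295, and not Mir291a or Mir293. Mir294 (3220641 to 3220724) and Mir295 (3220773 to 3220841) were covered by a single peak of 2030 bp at 3220556 to 3222585, the widest of the 28, which reached 1744 bp beyond Mir295. Of all peaks in the series, 1.64% were as wide or wider. That share is for single peaks, so it does not gauge how unusual the widest of 28 is. Mir293 (3220343 to 3220422), whose product has the divergent seed GUGCCGC, ended 133 bp before that peak. Mir291a (3218919 to 3219000) was the named gene farthest from a peak, at 497 bp from a narrow one of 204 bp at 3219498 to 3219701.

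That narrow peak covered 63 of the 79 bp of Mir291b (3219482 to 3219560), a gene of the cluster outside the 9. Mir290a and Mir292 had no peak over them, and their nearest peak was the same narrow one, 789 and 227 bp away. Mir290b and Mir292b, annotated on the opposite strand within the span of those hairpins, lay 802 and 238 bp from it. Peaks covered 25.5% of the cluster from Mir291a to Mir295.

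In the miR-302 cluster (chromosome 3, 127545228 to 127545807), the order among the named genes was the reverse, with the peak over the proximal ones. A peak of 1040 bp at 127544441 to 127545480 covered Mir302b (127545228 to 127545301) and Mir302c (127545363 to 127545430). It ended 15 bp before Mir302a (127545496 to 127545564), 143 bp before Mir302d (127545624 to 127545689) and 252 bp before Mir367 (127545733 to 127545807). The peak extended 787 bp upstream of the cluster and covered 43.6% of it. The cluster is short, at 580 bp against 1923 bp for miR-290, so 1 peak edge decides which of its genes were overlapped.

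**Figure D1:**
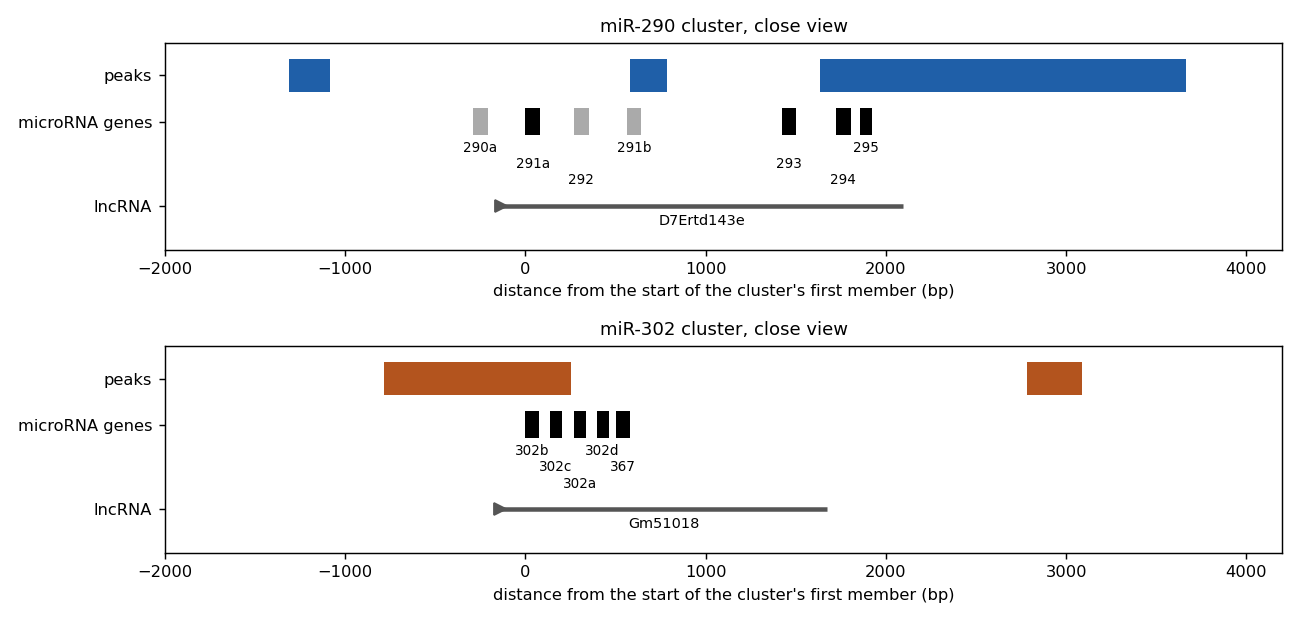
Close view of the clusters, with distance from the start of the first named gene in bp on the horizontal axis. Coloured bars are peaks, black bars the named microRNA genes, grey bars other plus-strand microRNA genes, and the lower line the long noncoding RNA annotated over each cluster, with an arrowhead at its start. The 2030 bp peak lies over Mir294 and Mir295, and the 1040 bp peak over Mir302b, Mir302c and the start of Gm51018.

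The annotated starts of the transcripts over the clusters also differed in whether a peak lay over them. Long noncoding RNAs run over both on the plus strand, D7Ertd143e over miR-290 (chromosome 7, 3218784 to 3221015) and Gm51018 over miR-302 (chromosome 3, 127545089 to 127546903). A promoter window here is the stretch from 250 bases before to 50 after the annotated start. The window of Gm51018 lay wholly inside the 1040 bp peak, which reached 648 bp upstream and 391 bp downstream of the start. The window of D7Ertd143e had no peak over any base. The peaks around its start ended 950 bp upstream, with a width of 225 bp, and began 713 bp downstream. Over all RefSeq promoter windows 55.0% were overlapped by a peak, and over those of long noncoding RNAs 31.4%, so an uncovered window is common for such transcripts. Mir290a ends 75 bp before the annotated start of D7Ertd143e, so the annotated transcript does not contain that microRNA, and a start of the primary transcript farther upstream was not measured.

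The sequences of these windows are shown because a peak was called over 1 start and not over the other. Without signal values, a window that lacks a peak is not shown to be closed. Capitals mark matches, on either strand, to any of 7 motifs: the octamer ATGCAAAT of the POU factors, the SOX core CATTGT, the TATA box TATAAA, the GC box GGGCGG, the CCAAT box CCAAT, the KLF core CCACCC and the nuclear receptor half-site AAGGTCA. The printed strand is that of the gene, in RefSeq GRCm38.p6, and none of the matches overlap.
D7Ertd143e (chr7:3218534-3218833, plus strand, no peak): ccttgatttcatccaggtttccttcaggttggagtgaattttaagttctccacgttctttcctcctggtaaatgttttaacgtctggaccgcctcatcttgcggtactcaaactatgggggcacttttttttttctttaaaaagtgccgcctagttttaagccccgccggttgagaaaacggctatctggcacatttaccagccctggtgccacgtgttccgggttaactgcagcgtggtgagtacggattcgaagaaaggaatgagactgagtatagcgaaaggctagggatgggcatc
Gm51018 (chr3:127544839-127545138, plus strand, inside the 1040 bp peak): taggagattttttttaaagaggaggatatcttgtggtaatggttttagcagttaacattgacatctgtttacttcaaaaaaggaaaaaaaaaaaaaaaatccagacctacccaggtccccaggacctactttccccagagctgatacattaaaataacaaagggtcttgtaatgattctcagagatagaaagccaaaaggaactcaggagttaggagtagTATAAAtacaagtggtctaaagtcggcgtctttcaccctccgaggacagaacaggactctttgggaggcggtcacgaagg

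The Gm51018 window held 1 match, a TATA box with its first base 30 bases before the start, a motif present in 13.6% of all 32851 promoter windows. The D7Ertd143e window held no match to the 7 motifs. The octamer was found in 1.74% of all windows, the SOX core in 12.6%, the GC box in 35.7%, the CCAAT box in 37.4%, the KLF core in 31.5% and the half-site in 4.72%. The window inside a peak was the poorer in G and C, at 40.3% with 5 CpG dinucleotides, and the window without a peak had 47.7% with 14. The medians over all promoter windows were 52.7% and 7. Of the windows with no more CpG dinucleotides than D7Ertd143e, 31.7% were in a peak. The D7Ertd143e window also contains the whole of Mir290a, whose hairpin is therefore part of the printed sequence.

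Around the clusters, peaks were more closely spaced at miR-290 than at miR-302. The miR-290 window (chromosome 7, 3168919 to 3270841, 102 kb) held 28 peaks, or 27.5 peaks per 100 kb, and they covered 20.4% of it. The miR-302 window (chromosome 3, 127495228 to 127595807, 101 kb) held 12 peaks, 11.9 per 100 kb, over 9.66% of its length. The median gap between neighbouring peaks was 1874 bp at miR-290 and 4906 bp at miR-302, beside 6.4 kb over the whole list.

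**Figure D2:**
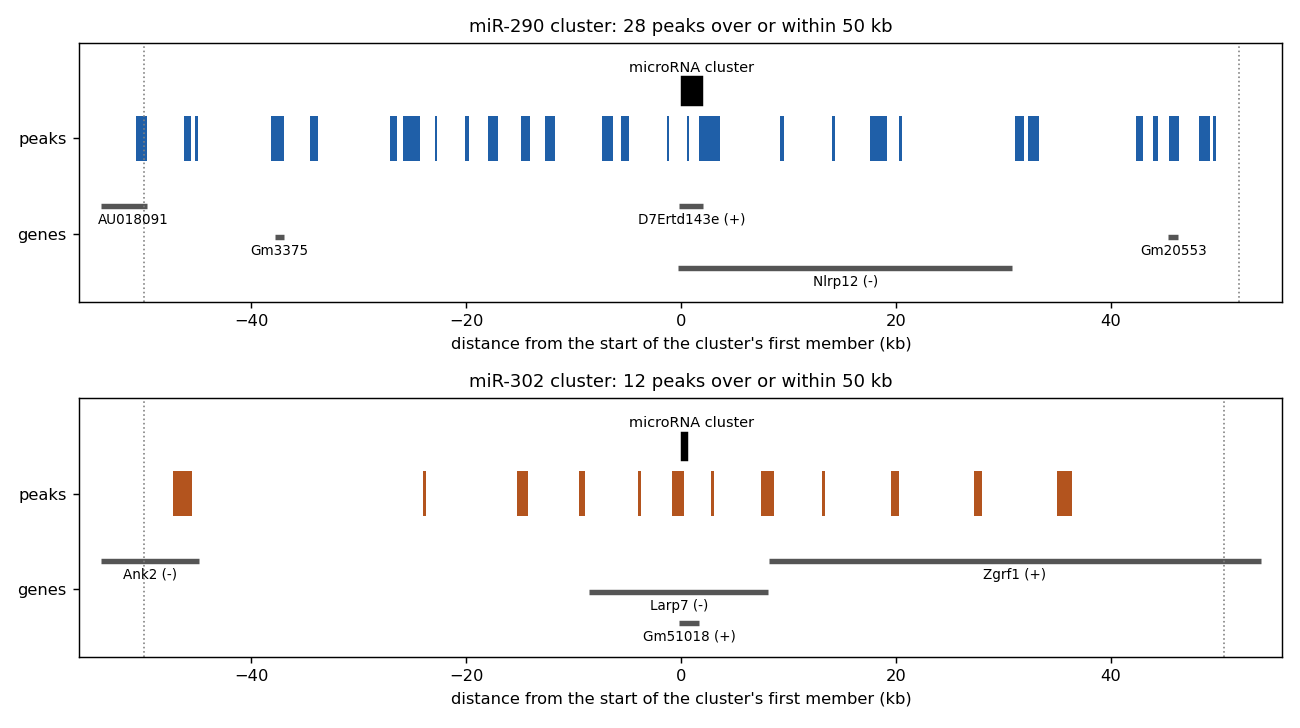
Peaks (coloured bars) and annotated genes (grey bars, strand in brackets where listed, cut near the panel edge) around each cluster, with distance from the start of the first named gene in kb. Dotted lines mark 50 kb from the cluster. The miR-290 window has 28 peaks and its longest stretch without a peak is 10.6 kb, while the miR-302 window has 12 and a longest stretch of 21.5 kb.

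Set among the 943 microRNA loci of the annotation (microRNA genes joined where gaps were at most 10 kb), miR-290 stood near the top and miR-302, at the 50 kb flank, in the middle. The median locus had 12.0 peaks per 100 kb within the same 50 kb flanks. At 5 loci, or 0.53%, the density was above that of miR-290, and the 2 densest, named here after their values were seen, were Mir10a beside Hoxb4 (31.0) and Mir6913 (29.0). At 494 loci, or 52.4%, it was above that of miR-302. Of the 27 loci with at least 3 microRNA genes, none exceeded miR-290 and 10 exceeded miR-302, and the median was 10.3. The contrast between the clusters depended on the flank. Within 10 kb they held 6 and 5 peaks, 27.4 and 24.3 per 100 kb, and 6.89% of loci, 2 clusters among them, exceeded miR-290 and 15.9% exceeded miR-302. With flanks of 25 and 100 kb, 0.318% and 1.91% of loci exceeded miR-290, and 30.4% and 34.9% exceeded miR-302. Levels of the microRNAs themselves were not measured, so these ranks order open chromatin and not expression.

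**Figure D3:**
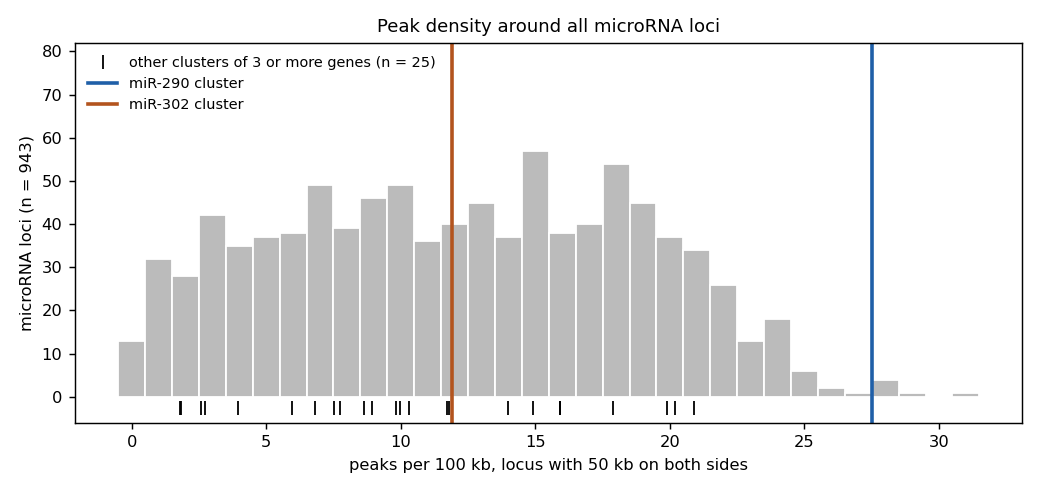
Histogram of peaks per 100 kb around 943 microRNA loci, each taken with 50 kb on both sides (vertical axis, number of loci). Vertical lines mark miR-290 (27.5) and miR-302 (11.9), and ticks below the bars mark the other 25 clusters of 3 or more genes, of which the densest stands at 20.9.

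The clusters closest in density to miR-290 were the locus of Mir3093 and Mir9-1 on chromosome 3 (20.9 peaks per 100 kb), a source of neural miR-9, that of Mir182 to Mir183 on chromosome 6 (20.2), known from sensory organs and also listed below with loci of proliferating cells, and that of Mir23a on chromosome 8 (19.9), all of them below it. Those closest to miR-302 were Mir429 to Mir200b on chromosome 4 (11.8), an epithelial cluster that is also among the listed loci of stem or proliferating cells through Mir200a, Mirlet7d to Mirlet7a-1 on chromosome 13 (11.7), of the let-7 family that counteracts pluripotency, and Mir341 to Mir370 on chromosome 12 (10.3), in an imprinted domain. The lists are loose groupings by known expression, not measured classes. Among 6 loci listed for stem or proliferating cells, density ran from 5.95 at the Mir17 cluster to 20.2 at Mir182 with a median of 15.9. Among 16 loci of differentiated tissues it ran from 0 at Mir223, a gene of myeloid cells, to 21.0 at the neural Mir9-3, with a median of 12.0. Neither list held a locus as dense as miR-290. A peak lay within 1 kb of 3 of the 6 and 7 of the 16, beside 37.1% of all microRNA genes. These counts are too small to set either list apart from that share. Farthest from a peak after Mir223 (64.0 kb) were the pancreatic Mir216a (21.5 kb), the liver gene Mir122 (8.45 kb) and the muscle genes Mir1a-2 (7.84 kb) and Mir206 (7.56 kb). Mir17, the head of a cluster known for cell proliferation, is of interest for its related seed, offset by 1 base.
miR-17-5p: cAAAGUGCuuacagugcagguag
Its nearest peak lay 808 bp away.

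The 100 kb around miR-290 were as dense as any stretch of that length within 500 kb, although peaks stayed frequent beyond it on the higher side, while the window at miR-302 was no regional maximum. From 50 to 500 kb away on both sides, the chromosome 7 region had 14.4 peaks per 100 kb, so the window at miR-290 was 1.91 times as dense as its surroundings. On chromosome 3 the surroundings had 9.11 and the ratio was 1.31. The same ratio had a median of 1.14 over all microRNA loci and exceeded that of miR-290 at 10.6% and that of miR-302 at 33.9% of them. A high ratio was not particular to miR-290 among clusters, since it was 2.44 at the Mir17 cluster and 3.04 at the locus of Mir363 to Mir106a, both in sparser surroundings (2.44 and 5.22 peaks per 100 kb). The first peak of chromosome 7 lies 216 kb below the miR-290 cluster, so only 616 kb were counted around it, against 900 kb around miR-302. Counted by midpoint in 10 kb bins, the 100 kb centred on miR-290 held 27 peaks, the highest of the 63 overlapping 100 kb runs in that span, together with 1 other run. The 100 kb centred on miR-302 held 12, and 27 of 91 runs, itself included, held at least as many, up to 20 in the run from 150 to 50 kb below the cluster.

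**Figure D4:**
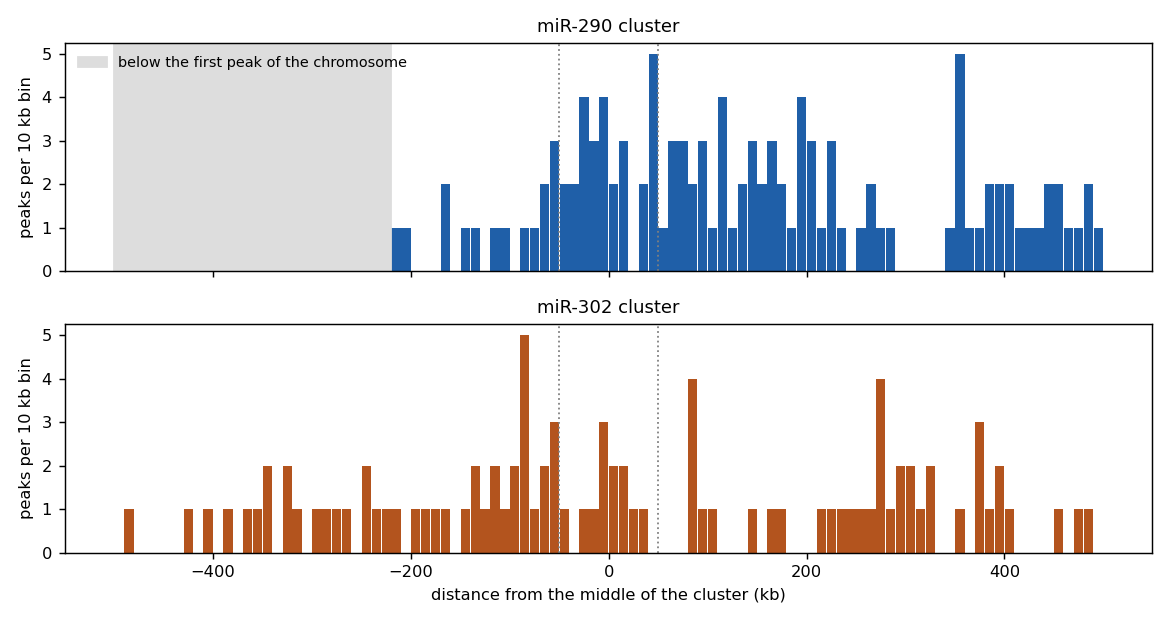
Peaks per 10 kb bin (by midpoint) within 500 kb of the middle of each cluster. Dotted lines mark 50 kb on both sides and the grey block on chromosome 7 lies below the first peak of that chromosome. Bins within 50 kb hold up to 5 peaks at miR-290 and up to 3 at miR-302.

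Against the genome at large, 0.0789% of 26608 tiles of 100 kb held at least 28 peaks and 18.2% held at least 12, with a median of 4 peaks a tile. Chromosome 7 tiles had a median of 5 and chromosome 3 tiles of 4. The tiles are slightly shorter than the windows and most hold no microRNA gene, so they are a wider yardstick than the loci above.

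At miR-290 the peaks were spread on both sides, 15 at lower coordinates, upstream of the plus-strand cluster, 2 over it and 11 at higher coordinates. The upstream DNA from AU018091, a protein-coding gene, to Mir290a is 49.4 kb long and contains 1 annotated pseudogene, Gm3375. It held 15 peaks, 1 of them only by the last bases of the peak at AU018091, which made 30.4 per 100 kb and 21.3% of the sequence. Of 2064 such intervals of 40 to 60 kb between protein-coding, long noncoding or microRNA genes, 0.339% were at least as dense, this one included, and the median was 7.33. The widest upstream peak, of 1619 bp, lay 24.3 kb from the cluster at 3193002 to 3194620. The 3 peaks nearest upstream were 225, 766 and 1052 bp wide at 1.08, 4.8 and 6.28 kb. A chain of 7 peaks, from 235 to 1619 bp wide, lay between 11.7 and 26.5 kb upstream.

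Downstream of miR-290, peaks lay in groups between bare stretches. Nlrp12, a gene of innate immune signalling on the minus strand (3218643 to 3249771), runs across the cluster from the opposite direction, so that the microRNA genes lie at its far end. It had 4 further peaks inside it, 341, 257, 1629 and 295 bp wide, at 7.33 to 18.3 kb from the cluster. The longest stretch without a peak, 10.6 kb, followed. The promoter window of Nlrp12 had no peak over it, and the closest began 60 bp away, at 3250051, with a width of 815 bp. A peak of 1011 bp ended at 3252238, and after another bare stretch 5 more began at 3261302, of which 1 of 905 bp at 3264343 to 3265247 overlapped 880 of the 945 bp of the pseudogene Gm20553.

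Most peaks at miR-290 contained no annotated start or end of a gene, as was so over the whole list. This held for 23 of the 28, beside 89.2% of all peaks, and none overlapped the promoter windows of D7Ertd143e and Nlrp12. The 5 with a gene end were those at AU018091, Gm3375, Gm20553, Mir291b and the 2030 bp peak, which also holds the end of D7Ertd143e. Sequences of pseudogenes have close copies elsewhere, so reads over Gm3375 (857 of 871 bp in a peak) and Gm20553 may not be placed uniquely, and no source used here states a filter on such reads.

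At miR-302 the peaks were fewer, and the 4 promoter windows of its annotated genes, Ank2, Larp7, Zgrf1 and Gm51018, were all in a peak. The share given above was 55.0% over all windows and 31.4% over those of long noncoding RNAs, such as Gm51018. The windows of Larp7 and Zgrf1 overlap and lie under 1 peak, so the 4 are not separate observations. Of the 12 peaks, 5 lay at lower coordinates, 1 over the cluster and 6 at higher coordinates. The microRNA genes lie within Larp7, a gene on the minus strand (127536714 to 127553349) whose product binds the 7SK RNA that restrains transcription elongation, and are therefore read from the opposite strand. Larp7 and its neighbour Zgrf1 (127553396 to 127618023, plus strand, a helicase-related gene) start back to back with 46 bp between their annotated ends. A single peak of 1210 bp at 127552659 to 127553868 covered both promoter windows in full. Besides the peak over the cluster, the body of Larp7 held 2 small peaks, 237 bp wide at 3.75 kb upstream of the microRNAs and 304 bp wide at 2.21 kb downstream.

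The Larp7 window, from the same peak, is printed for contrast with the start of Gm51018 inside the gene.
Larp7 (chr3:127553300-127553599, minus strand): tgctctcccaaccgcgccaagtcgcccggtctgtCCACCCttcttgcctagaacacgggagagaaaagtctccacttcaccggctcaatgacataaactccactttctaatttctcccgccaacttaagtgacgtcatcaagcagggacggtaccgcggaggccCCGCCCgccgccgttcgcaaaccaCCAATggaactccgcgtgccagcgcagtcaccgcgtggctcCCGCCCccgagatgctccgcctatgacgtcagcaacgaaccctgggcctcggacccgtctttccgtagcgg
It had 4 matches to the motifs above, 2 GC boxes on the opposite strand, 1 CCAAT box and 1 KLF core, with 61.7% G and C and 30 CpG dinucleotides. No TATAAA was found in it, whereas the Gm51018 window had that motif and none of the others.

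The rest of the miR-302 window was open at long intervals. Zgrf1 contained 4 more peaks of 260, 798, 803 and 1393 bp at 12.6, 18.9, 26.7 and 34.4 kb from the cluster. On the other side, peaks of 580, 1025 and 227 bp stood at 8.89, 14.2 and 23.8 kb. The widest of the 12, 1836 bp at 127497900 to 127499735, covered the promoter window of Ank2, an ankyrin gene on the minus strand, 45.5 kb from the cluster. Between these last 2 lay the 21.5 kb without a peak. Of the 12 peaks, 10 contained no annotated gene end, a share close to the 89.2% of all peaks.

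Although the clusters differed in how many peaks surrounded them, the widths of their peaks spanned much the same range. The median width was 754.5 bp at miR-290 (204 to 2030 bp) and 800.5 bp at miR-302 (227 to 1836 bp), and 578 bp over the whole list. Peaks wider than that list median made up 18 of 28 at miR-290 (64.3%) and 8 of 12 at miR-302 (66.7%), beside 50.0% of all peaks. More than 1000 bp was reached by 8 and 5 peaks, and 20.6% of all peaks were that wide. Under 350 bp were 8 and 4, and 22.7% of all peaks. The counts are too small to order the 2 windows by width. At the 50 kb limit, the outermost peaks kept at miR-290 lay 49.7 and 47.6 kb from the cluster and the nearest left out 52.3 and 56 kb. At miR-302 those kept lay at 45.5 and 34.4 kb and those left out at 55.4 and 79.6 kb.

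**Figure D5:**
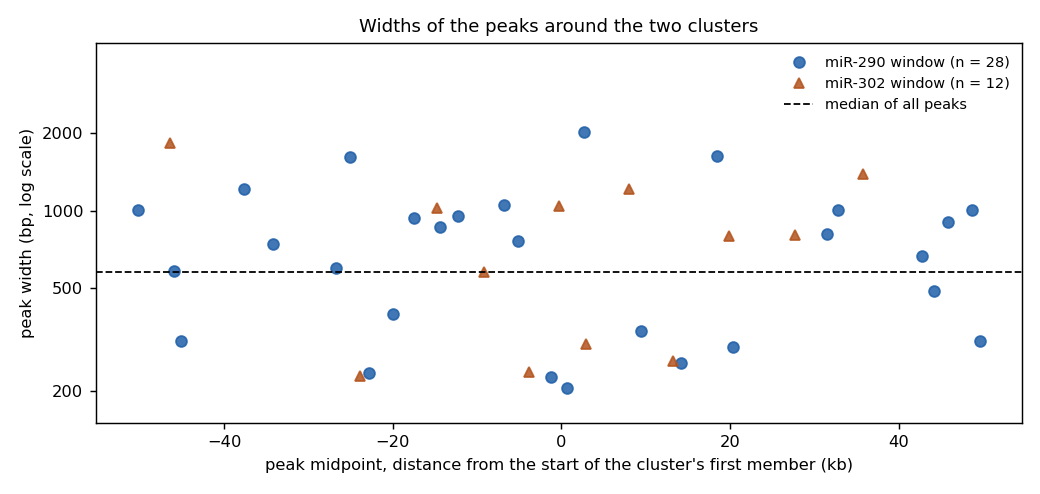
Width of each peak (bp, log axis) against its midpoint's distance from the start of the first named gene (kb) for the miR-290 window (circles, 28 peaks) and the miR-302 window (triangles, 12 peaks). The dashed line is the median of all peaks, 578 bp. At miR-302 the 4 peaks under 350 bp lie within 25 kb, while at miR-290 peaks under 350 bp also lie near the edges of the window.

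Genes that make, restrain or answer to these microRNAs were largely open at an annotated end, as most protein-coding genes were. A gene was counted where a peak lay within 500 bp of either annotated end, which held for 71.4% of the 21774 protein-coding genes. Of 13 genes of microRNA processing and silencing, 12 had such a peak. Drosha and Dgcr8, which cut the primary transcript, had peaks of 1266 and 1431 bp, Xpo5, which exports the precursor, 1396 bp, and Dicer1, which makes the mature duplex, 1752 bp. The exception was the Argonaute gene Ago3, with its nearest peak 1.19 kb from an end, although its promoter window was overlapped.

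Of 6 genes that oppose or tail let-7 microRNAs, 5 had a peak at an end, and that at Lin28a, an RNA-binding protein of stem cells, was 3121 bp wide. The next were Trim71 (2815 bp), Lin28b (1727 bp) and Tut4 (1711 bp). Dis3l2, an exonuclease gene for tailed precursors, had its nearest peak 1.34 kb from an end, and its promoter window too was overlapped. Of 13 genes known as targets of the shared seed, 12 had a peak at an end, among them Cdkn1a (1240 bp), Rbl2 (2256 bp), the Hippo kinase gene Lats2 (1724 bp) and Lefty1, a Nodal antagonist (750 bp). Lefty2 had none, with the nearest 0.813 kb away. A peak at a target gene says nothing of repression by a microRNA, which acts on the messenger RNA.

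As a check of the cell label, all 6 embryonic stem cell genes (Pou5f1, Nanog, Sox2, Zfp42, Esrrb and Tdgf1) had a peak at an end. So had 3 of 5 fibroblast genes, without Postn and Lum, and 3 of 4 endoderm genes, without Gata4. The share over all protein-coding genes was 71.4%, so these few peak positions alone do not separate the cell types.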

How the data were processed

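The authors deposited 1 list of 166066 merged ATAC-seq peaks. It holds other values only, the chromosome, start and end of each peak and a label made from them, with no score. Per the submitters' processing notes, the tools were MACS2 2.2.7.1, Bowtie2 2.4.2 and Trimmomatic 0.36 and the builds GRCm38 and mm10, listed without role or order. How peaks were merged, which threshold was used and how duplicate reads were handled are not given in the sources used here, and each can change which peaks exist and where they end. With no values per library, the planned comparisons of later times with 0 h were not run.

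Starts were converted to 1-based positions. Genes came from a RefSeq table of GRCm38.p6, without 348 genes whose coordinates are those of scaffolds, and sequences and strands from RefSeq tables of the same build, in which all 9 named genes were found. A peak counted with at least 1 bp of overlap. Of the 24 comparison loci, Mir466a was not matched. Mir379, listed for large clusters, was matched, and its locus had 8.64 peaks per 100 kb with the nearest peak 2.11 kb from the gene. The large cluster of Mir466m to Mir669h on chromosome 2 had 3.96 per 100 kb.

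The members and gene lists were chosen with earlier results of these data known, and the promoter, motif, tile, interval and regional comparisons after the positions were seen. Values are described beside the same values over all features, without tests. Named genes are the 9 members, other microRNA genes within 10 kb, genes of the windows, list genes without a peak and a few with one, and the 3 clusters nearest in density. Distances, counts and coverage were tested on simulated peaks at 773 loci and by direct sums over 300 windows, and all were recovered. Python 3.11.15, numpy 2.4.6, pandas 2.3.3 and matplotlib 3.10.9 were used.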

Additional observations from a re-analysis of the deposited data

How the results depend on the processing

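Of 38 alternative values, 28 lay within 1.5 times the reported one. Peaks per 100 kb at miR-302 were 24.3 with a flank of 10 kb, and its coverage 16.4%, since 5 of its 12 peaks lay within 10 kb. At miR-290, counting only peaks wider than the list median gave 17.7 per 100 kb, fewer peaks being counted, and requiring a peak over the gene left 4 of the 9 named genes. The other flanks (25 and 100 kb) gave 28.9 and 22.8 at miR-290, and 17.8 and 15.0 at miR-302, where the reported 11.9 was the lowest of the flanks. Ranks were recomputed after seeing the data. Loci denser than miR-290 numbered 65 of 943 at 10 kb, 3 at 25 kb, 18 at 100 kb and 5 with wide peaks alone, and clusters of 3 or more genes 2, 0, 0 and 0. For miR-302 they were 150, 287, 329 and 410 loci. No paired analysis was possible because the list holds no values per library, and for the same reason no replicate could be left out. Depth is unknown.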

Other observations

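The microRNA loci denser in peaks than miR-290 were named after their values were seen. After Mir10a and Mir6913 came Mir343 and the pair Mir5615-1 and Mir5615-2 with 28.0 peaks per 100 kb each, and Mir150 with Mir5121 at 27.6. None of these 5 loci holds 3 or more microRNA genes.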
